A study of Homo sapiens with 12 samples.

Results

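The 35 genes described here encode the enzymes of cholesterol and fatty acid synthesis and the proteins that control their transcription. They were taken from a list of gene symbols, a rule that sets no threshold on a measured value, although the list was drawn up with earlier results of these data known. They were matched to the Ensembl gene IDs of the deposited table. All 35 were found among the 63541 gene IDs, and all 35 were among the 21999 genes left by the filter on low counts. RNA came from HEK293T, a cell line of human embryonic kidney that carries the SV40 large T antigen, collected 48 h after lipid transfection with 12.5 nM siRNA. The 12 libraries formed 4 groups of 3 replicates: cells given a scramble siRNA, and cells given si-snaR-A#1, si-snaR-A#2 or si-snaR-A#3, which all target the small noncoding RNA snaR-A. Every group therefore shares the cell line, the reagent, the siRNA dose and the time, and the labels name no difference but the siRNA. How library preparation and sequencing were arranged over the groups is not stated in the sources used here. The comparison with scramble asks how the mRNAs of these genes differ between cells given an siRNA against snaR-A and cells given scramble. Each group received an siRNA of its own, so depletion of snaR-A cannot be told apart from other effects of that siRNA's sequence. In the paper's supplement the sequence of si-snaR-A#3 contains the whole of that of si-snaR-A#2. The sequence of si-snaR-A#1 also shares most of its length with both, so the 3 siRNAs are not independent reagents. snaR-A itself could not be read from these poly(A)+ RNA counts, and how far it was depleted in each library is not known here. The 3 replicates of a group are described in the methods as biological replicates handled on 1 day, and the p-values measure the spread between these cultures.

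Cholesterol is built from acetyl-CoA through mevalonate, isoprenoid diphosphates and squalene, and fatty acids are built from the same acetyl-CoA through malonyl-CoA. Most genes of both routes are switched on by the sterol regulatory element-binding proteins (SREBPs), transcription factors that are made as membrane proteins of the endoplasmic reticulum. SCAP escorts SREBPs to the Golgi for proteolytic release when sterols are scarce, and INSIG1 and INSIG2 hold SCAP back when sterols are plentiful. SREBF2 encodes the form known mainly for cholesterol genes, SREBF1 encodes the forms known mainly for fatty acid genes, and INSIG1 is itself a well-known SREBP target.

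RefSeq gave a promoter window (GRCh38.p14), from 250 bases before to 50 bases after an annotated transcript start, for 31 of the 35 members. Windows of 4 members are printed because they carry the contrasts described here. INSIG1 had the largest rise of the 35. FDPS and MSMO1 are enzymes that rose with si-snaR-A#2 as well as si-snaR-A#3 and overlapped with scramble with si-snaR-A#1. SREBF2 was the member with a match to the sterol regulatory element core. Capitals mark matches on either strand to that core (TCACNCCAC), to the E-box (CACGTG) or to the NF-Y box (CCAAT).
INSIG1, chr7:155297628-155297927, plus strand: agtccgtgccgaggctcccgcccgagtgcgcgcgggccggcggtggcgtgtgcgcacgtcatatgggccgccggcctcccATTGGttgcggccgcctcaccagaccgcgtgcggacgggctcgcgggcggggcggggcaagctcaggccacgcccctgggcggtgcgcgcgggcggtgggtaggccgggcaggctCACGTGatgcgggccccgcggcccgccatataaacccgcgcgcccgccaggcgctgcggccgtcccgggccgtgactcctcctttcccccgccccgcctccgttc
FDPS, chr1:155308616-155308915, plus strand: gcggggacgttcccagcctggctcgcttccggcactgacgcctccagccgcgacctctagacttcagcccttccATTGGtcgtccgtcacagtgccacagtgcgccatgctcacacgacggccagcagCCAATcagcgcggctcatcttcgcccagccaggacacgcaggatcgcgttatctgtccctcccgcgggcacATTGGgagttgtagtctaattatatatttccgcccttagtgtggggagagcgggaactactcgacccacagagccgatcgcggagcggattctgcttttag
MSMO1, chr4:165327419-165327718, plus strand: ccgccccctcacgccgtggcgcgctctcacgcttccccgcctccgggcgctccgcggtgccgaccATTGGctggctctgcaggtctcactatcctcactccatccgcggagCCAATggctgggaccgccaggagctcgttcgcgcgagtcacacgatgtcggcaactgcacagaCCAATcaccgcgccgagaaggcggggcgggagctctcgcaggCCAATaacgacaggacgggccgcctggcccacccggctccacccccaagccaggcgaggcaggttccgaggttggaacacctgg
SREBF2, chr22:41832855-41833154, plus strand: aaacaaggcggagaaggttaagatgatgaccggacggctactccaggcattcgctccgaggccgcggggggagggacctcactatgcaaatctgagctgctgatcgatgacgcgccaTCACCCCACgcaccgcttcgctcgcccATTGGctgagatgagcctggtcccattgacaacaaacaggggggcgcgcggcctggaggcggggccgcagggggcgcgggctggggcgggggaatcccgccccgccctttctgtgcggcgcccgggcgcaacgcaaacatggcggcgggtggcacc
The INSIG1 window held 1 E-box and 1 NF-Y box, the FDPS window 3 NF-Y boxes, the MSMO1 window 4 NF-Y boxes, and the SREBF2 window 1 core and 1 NF-Y box. Searched over all windows of a gene, with overlapping matches allowed, the NF-Y box was present in 22 of 31 members (71%) and in 39.7% of 27305 genes. The GC box (GGGCGG) was present in 29 members (93.5%) and in 48.3% of all genes. The E-box was present in 4 members (12.9%, against 8.77% of all genes) and the sterol regulatory element core in 1 (3.23%, against 1.39%). The 27305 genes were not limited to expressed genes, and a gene with more windows has more room for a match. They had 35116 windows, and the 31 members had 46. A match describes these letters in this window and not the binding of a factor.

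All 35 genes were expressed in scramble cells, and their levels spanned a wide range. Levels were compared between genes as CPM (TMM-normalised counts for every 1e6 counted) per kb of the canonical transcript. SCD, the stearoyl-CoA desaturase, had the highest level in scramble at 273 ± 8.90 CPM per kb (SD, n = 3). SQLE, the squalene epoxidase, followed at 209 ± 8.58, INSIG1 at 175 ± 7.66, IDI1 at 152 ± 5.19, ACLY at 142 ± 3.76 and FDPS at 124 ± 2.29 CPM per kb. At the other end stood TM7SF2 at 5.15 ± 0.131, ACACA at 4.83 ± 0.575, MVK at 3.31 ± 0.121 and SREBF1 at 2.90 ± 0.224 CPM per kb. The transcript of SREBF2 was therefore at a higher level (39.0 ± 1.28 CPM per kb) than that of SREBF1, with no overlap between libraries. All 35 members lay above 2.64 CPM per kb, the median of 20691 tested genes with a transcript length. Of the 34 neighbouring pairs in this order, 10 had overlapping scramble libraries and their order is not resolved: ACAT2 with CYP51A1, CYP51A1 with EBP, DHCR7 with FASN, GGPS1 with SC5D, HSD17B7 with INSIG2, MVD with SCAP, SCAP with PMVK, FDFT1 with LSS, LSS with ACSS2, and TM7SF2 with ACACA.

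**Figure D1:**
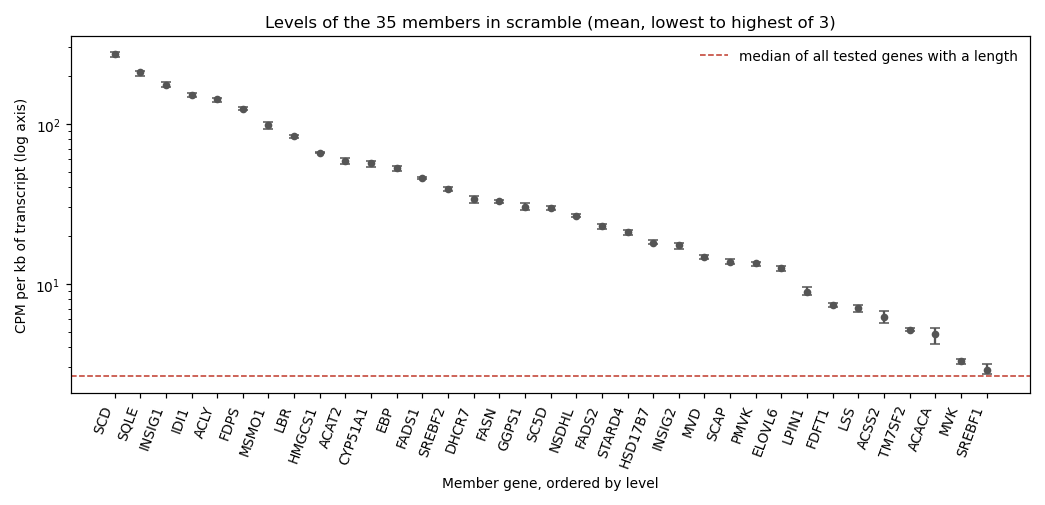
Level of each of the 35 members in the scramble libraries, as CPM per kb of transcript on a log axis, ordered from highest to lowest. Points are means of 3 libraries and bars run from the lowest to the highest library. The dashed line is the median of all tested genes with a length, 2.64 CPM per kb, which all members exceed.

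Library totals were between 120.4 and 180.1 in units of 1e6 counts, and TMM factors between 0.956 and 1.09. Genes of the mitochondrial genome took 5.46% ± 0.640 of counts in scramble, 4.15% ± 0.449 with si-snaR-A#1, 5.28% ± 0.470 of counts with si-snaR-A#2, and 4.91% ± 0.888 of counts with si-snaR-A#3 (SD, n = 3 each). The 35 members together took 0.683% ± 0.0135 of counts in scramble. Their share was 0.630% ± 0.0238 with si-snaR-A#1. For si-snaR-A#2 it was 0.816% ± 0.0327, and for si-snaR-A#3 it was 0.764% ± 0.0178. The si-snaR-A#1 libraries lay below all scramble libraries in this share, and all libraries of the other 2 siRNAs lay above them. Of the markers fixed for the labelled embryonic kidney line and epithelial type, 6 of 7 and 5 of 5 exceeded 1 CPM on average over the scramble libraries. Of the hepatocyte and adipocyte markers 0 of 4 each did, with summed levels of at most 0.228 and 1.13 CPM in any library. Of the blood cell markers 1 of 4 (HBA1) exceeded 1 CPM on the same average, and of the fibroblast markers 2 of 4 (COL1A1 at 25.4 and COL3A1 at 5.95 CPM) did. The highest of the epithelial list was CDH2 at 143 CPM in scramble. The others were KRT18 at 29.9, CDH1 at 10.6, KRT8 at 7.66 and EPCAM at 1.86 CPM.

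Against scramble, most members that changed were lower with si-snaR-A#1 and higher with the other 2 siRNAs. For si-snaR-A#1, 22 of 35 members were called at an adjusted p under 0.05 (edgeR quasi-likelihood test), where 45.2% of all genes tested were called. Of these, 7 were higher and 15 were lower, beside 21.9% and 23.3% of all genes. With si-snaR-A#2, 18 members were called (25.8% of all genes), 17 of them higher (13.7% of all genes) and 1 lower (12.1%). With si-snaR-A#3, 21 members were called (29.4% of all genes), 18 higher (16.5%) and 3 lower (13.0%). The median log2 fold change over the 35 members was -0.10, 0.19 and 0.18 with the 3 siRNAs in turn, and that of all genes tested was -0.02, -0.03 and -0.03. These comparisons share the 3 scramble libraries. Of the 21999 genes tested, 14529 had a mean of at least 1 CPM, and changes of genes at low counts are harder to call. All 35 members lay above the median level per kb, and the share called among genes of like level was not computed. Most of the changes were small: a change of at least 2-fold was called for SC5D and TM7SF2 (lower with si-snaR-A#1) and for INSIG1 (higher with si-snaR-A#2 as well as si-snaR-A#3).

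**Figure D2:**
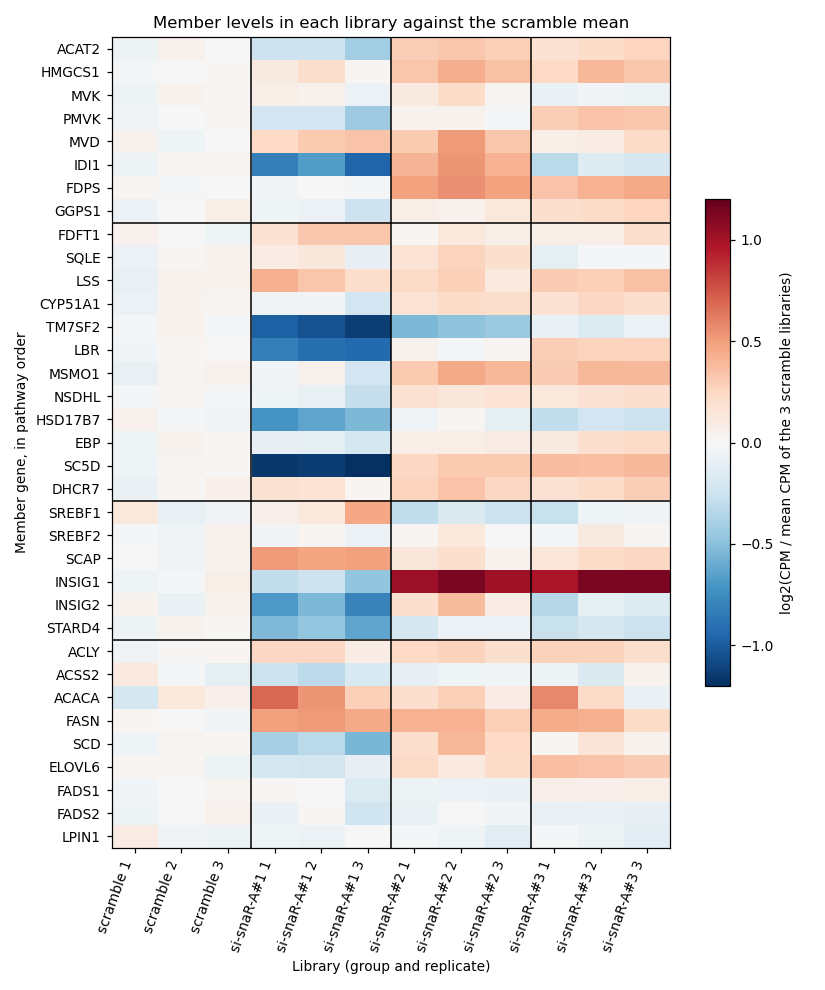
Each of the 35 members (rows, grouped by role in pathway order) in each of the 12 libraries (columns), as log2 of its CPM over the mean CPM of the 3 scramble libraries. Red is above and blue below the scramble mean. The INSIG1 row is deep red in the 6 libraries of the siRNAs other than si-snaR-A#1, and the SC5D, TM7SF2, LBR and IDI1 rows are blue in the 3 libraries of si-snaR-A#1.

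Scaling the libraries by upper quartiles in place of TMM lowered the share of higher genes among all calls from 53.2% to 40.5% with si-snaR-A#2 and from 55.9% to 42.7% with si-snaR-A#3. Under that scaling 16 members were higher and 3 lower with si-snaR-A#2, and 17 were higher and 5 lower with si-snaR-A#3.

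**Figure D3:**
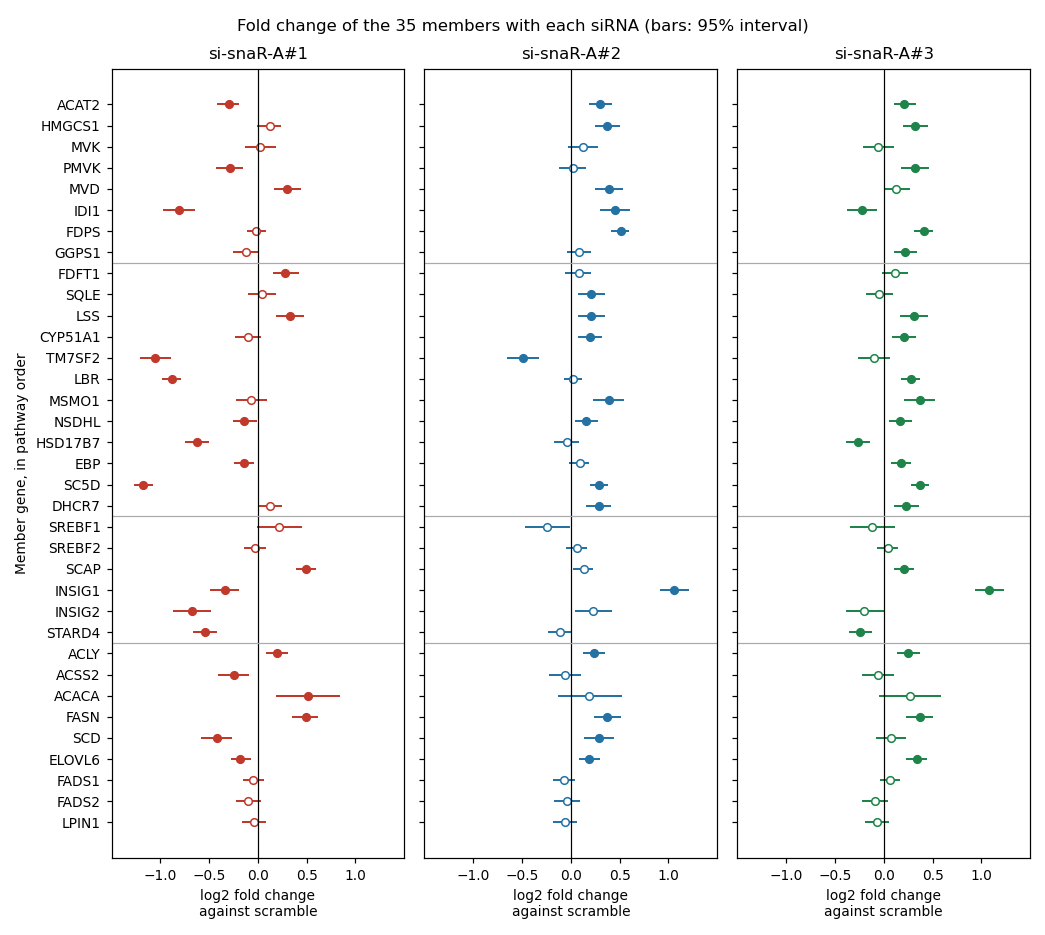
Log2 fold change of each of the 35 members against scramble with each siRNA (1 panel each), in pathway order, with grey lines between the 4 roles. Bars are 95% intervals, filled points passed an adjusted p under 0.05 and open points did not. Most filled points lie to the left of 0 with si-snaR-A#1 (15 of 22) and to the right of 0 with si-snaR-A#2 (17 of 18) and si-snaR-A#3 (18 of 21).

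The control genes of the pathway differed among themselves, and neither SREBP transcript passed against scramble in the fit of all 12 libraries. INSIG1, which retains SCAP in the endoplasmic reticulum, stood at 490.4, 502 and 533 CPM in the scramble libraries. It stood at 415, 427 and 366 CPM with si-snaR-A#1, at 1033, 1115 and 1028 CPM with si-snaR-A#2, and at 1004, 1116 and 1111 CPM with si-snaR-A#3. Every si-snaR-A#1 library was thus below the scramble libraries, and the 6 libraries of the other 2 siRNAs were all above them. INSIG1 rose 2.08-fold with si-snaR-A#2 (log2 fold change 1.06 ± 0.06 SE, adjusted p = 2.5e-07) and 2.12-fold with si-snaR-A#3 (1.08 ± 0.06, adjusted p = 1.9e-07). It fell with si-snaR-A#1 (-0.34 ± 0.06, adjusted p = 0.00083).

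INSIG2, the second retention protein, which is not known as a direct SREBP target, behaved otherwise. Its levels were 64.1, 59.0 and 64.1 CPM in scramble, 38.6, 42.9 and 35.7 CPM with si-snaR-A#1, 71.9, 81.2 and 66.3 CPM with si-snaR-A#2, and 49.3, 57.9 and 56.0 CPM with si-snaR-A#3. The fall with si-snaR-A#1 passed the test (-0.68 ± 0.08, adjusted p = 2.8e-05) with no overlap between groups. The differences with si-snaR-A#2 (0.23 ± 0.08, adjusted p = 0.0631) and si-snaR-A#3 (-0.20 ± 0.08, adjusted p = 0.0985) did not pass, although the libraries did not overlap with scramble either. The si-snaR-A#2 difference passed without si-snaR-A#1 replicate 2 or 3, si-snaR-A#2 replicate 3 or si-snaR-A#3 replicate 1, and over the 9 settings in which it passed it lay between 0.22 and 0.30. The si-snaR-A#3 difference passed in 4 of 21 settings, at -0.25 under upper quartile scaling, -0.23 with a mean of at least 1 CPM, and -0.25 with a trend on GC content and length removed, both without and with the replicate block.

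SCAP, the escort protein, was at 58.2, 56.6 and 60.2 CPM in scramble and at 83.2, 80.8 and 82.2 CPM with si-snaR-A#1, a rise of 0.49 ± 0.04 (adjusted p = 1.3e-06) with no overlap. With si-snaR-A#3 it was at 64.5, 68.1 and 69.3 CPM and also higher (0.21 ± 0.04, adjusted p = 0.00325). With si-snaR-A#2 it was at 63.9, 66.6 and 60.4 CPM, and the difference of 0.13 ± 0.04 just missed the threshold (adjusted p = 0.0515); it passed in 11 of 21 alternative settings.

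SREBF2 passed in none of the 7 comparisons of that fit and stood at 202, 199 and 212 CPM in scramble, 199.6, 208 and 195 CPM with si-snaR-A#1, 209, 223 and 205 CPM with si-snaR-A#2, and 203, 220.5 and 207 CPM with si-snaR-A#3. Its libraries overlapped in every comparison, and the 95% intervals of its log2 fold change were -0.13 to 0.07, -0.04 to 0.16 and -0.06 to 0.14 with the 3 siRNAs in turn. SREBF1 was at 15.5, 13.4 and 13.8 CPM in scramble, 14.8, 15.5 and 19.6 CPM with si-snaR-A#1, 11.6, 12.6 and 11.9 CPM with si-snaR-A#2, and 11.8, 13.7 and 13.8 CPM with si-snaR-A#3. Its log2 differences from scramble were 0.22 ± 0.10, -0.24 ± 0.10 and -0.12 ± 0.10, and none of the 3 passed. The difference with si-snaR-A#1 passed without si-snaR-A#1 replicate 1 (0.30) and in DESeq2 (0.23, adjusted p = 0.0475). That with si-snaR-A#2 passed without si-snaR-A#1 replicate 3 (-0.22) and with only the compared groups fitted (-0.23, adjusted p = 0.0257). The remaining gene of this role is STARD4, a carrier of sterol between membranes, which was lower with si-snaR-A#1 (mean 67.4 against 98.1 CPM in scramble) and with si-snaR-A#3 (82.9 CPM).

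**Figure D4:**
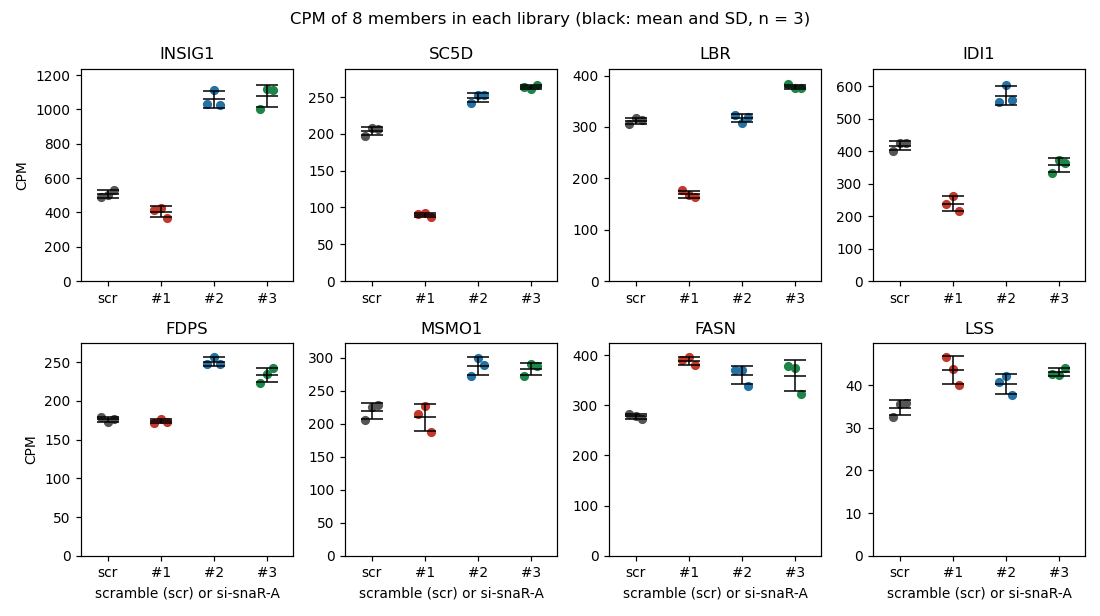
CPM of 8 members in each library (coloured points) with the mean and SD of each group of 3 in black, on axes that start at 0, for scramble (scr) and si-snaR-A#1 to si-snaR-A#3 (#1 to #3). INSIG1 separates the siRNAs in both directions, SC5D and LBR are low with si-snaR-A#1, IDI1 has a level of its own with each siRNA, FDPS and MSMO1 are high with si-snaR-A#2 as well as si-snaR-A#3, and FASN and LSS are above scramble with all 3.

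Among the 8 enzymes that lead from acetyl-CoA to the isoprenoid diphosphates, 5 rose and none fell with si-snaR-A#2, 5 rose and 1 fell with si-snaR-A#3, and 1 rose and 3 fell with si-snaR-A#1. Their median log2 fold change was 0.34, 0.22 and -0.07 in the same order. Beside these counts stand 25.8%, 29.4% and 45.2% of all genes called in that order. The 4 of 8 called with si-snaR-A#1 are near that share. ACAT2, the cytosolic thiolase of the first step, was at 85.8, 92.9 and 89.8 CPM in scramble and at 75.2, 75.3 and 67.0 CPM with si-snaR-A#1 (-0.30 ± 0.05, adjusted p = 0.00022). It was at 110.1, 112 and 109 CPM with si-snaR-A#2 (0.30 ± 0.05, adjusted p = 0.00056) and at 101, 104 and 107 CPM with si-snaR-A#3 (0.21 ± 0.05, adjusted p = 0.00513). No siRNA library overlapped with scramble, on either side.

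PMVK, phosphomevalonate kinase, was at 13.1, 13.5 and 13.8 CPM in scramble, 11.5, 11.5 and 9.96 CPM with si-snaR-A#1, 13.9, 13.9 and 13.3 CPM with si-snaR-A#2, and 16.5, 17.1 and 16.8 CPM with si-snaR-A#3. It fell with si-snaR-A#1 (-0.29 ± 0.06, adjusted p = 0.00159), rose with si-snaR-A#3 (0.32 ± 0.06, adjusted p = 0.00142), and overlapped with scramble with si-snaR-A#2 (0.02 ± 0.06).

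IDI1, the isomerase of isopentenyl diphosphate, took a different level with each siRNA. It was at 401, 425 and 426 CPM in scramble, 237, 262 and 215 CPM with si-snaR-A#1, 552, 604 and 559 CPM with si-snaR-A#2, and 333, 374 and 365 CPM with si-snaR-A#3. No 2 of the 4 groups overlapped. Its log2 fold changes were -0.81 ± 0.07 (adjusted p = 9.1e-07), 0.45 ± 0.07 (adjusted p = 0.00033) and -0.22 ± 0.07 (adjusted p = 0.0251). The last of these calls was lost without si-snaR-A#3 replicate 1 (-0.18), scramble replicate 2 (-0.21) or scramble replicate 3 (-0.20).

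FDPS, farnesyl diphosphate synthase, was at 179.6, 173 and 176 CPM in scramble and at 172, 177 and 173 CPM with si-snaR-A#1, which overlapped (95% interval of the log2 difference -0.10 to 0.07). It was at 247, 257 and 247 CPM with si-snaR-A#2 (0.51 ± 0.04, adjusted p = 1.4e-06) and at 223, 235 and 242 CPM with si-snaR-A#3 (0.41 ± 0.04, adjusted p = 7.2e-06), above all scramble libraries. Of the other 4 enzymes, HMGCS1, which makes HMG-CoA, rose with si-snaR-A#2 as well as si-snaR-A#3. MVD, the decarboxylase that follows PMVK, rose with si-snaR-A#1 as well as si-snaR-A#2, and GGPS1, which makes geranylgeranyl diphosphate, with si-snaR-A#3. MVK, mevalonate kinase, passed in no comparison.

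The 12 enzymes from squalene to cholesterol gave 7 rises and 1 fall with si-snaR-A#2, 8 rises and 1 fall with si-snaR-A#3, and 2 rises and 6 falls with si-snaR-A#1, with median log2 fold changes of 0.18, 0.19 and -0.12. The shares of all genes called in that order were 25.8%, 29.4% and 45.2%. The falls with si-snaR-A#1 took in both genes for the reduction of the sterol C14 double bond, TM7SF2 and LBR. TM7SF2 was at 7.97, 8.36 and 8.05 CPM in scramble, 4.12, 3.93 and 3.71 CPM with si-snaR-A#1, 5.61, 5.82 and 5.98 CPM with si-snaR-A#2, and 7.71, 7.25 and 7.75 CPM with si-snaR-A#3. It fell with si-snaR-A#1 (-1.05 ± 0.07, adjusted p = 1.2e-07) and with si-snaR-A#2 (-0.49 ± 0.07, adjusted p = 0.00023), and did not pass with si-snaR-A#3 (-0.10 ± 0.07). Exons of VPS51 lie on the same strand over those of TM7SF2, so that reads of the 2 genes may be shared.

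LBR, which is also the lamin B receptor of the inner nuclear membrane, was at 305, 317 and 314 CPM in scramble and at 177, 167 and 163 CPM with si-snaR-A#1 (-0.88 ± 0.04, adjusted p = 4.2e-09). It was at 323, 308 and 319 CPM with si-snaR-A#2, overlapping scramble (0.02 ± 0.04), and at 383, 376 and 376 CPM with si-snaR-A#3, above it (0.28 ± 0.04, adjusted p = 0.00016).

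SC5D, the sterol C5 desaturase, had the largest fall of the 35 members. It was at 197, 208 and 206 CPM in scramble and at 91.2, 92.4 and 86.9 CPM with si-snaR-A#1, 0.442 of the scramble level (-1.18 ± 0.04, adjusted p = 6.1e-10). With si-snaR-A#2 it was at 242, 253 and 253 CPM (0.29 ± 0.04, adjusted p = 9.5e-05) and with si-snaR-A#3 at 263, 261 and 266 (0.37 ± 0.04, adjusted p = 1.2e-05). Each group stood clear of scramble.

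The changes of the other named sterol enzymes were smaller. LSS, lanosterol synthase, which cyclises squalene epoxide, was at 32.6, 35.6 and 35.8 CPM in scramble, 46.6, 43.7 and 40.1 CPM with si-snaR-A#1, 40.7, 42.2 and 37.6 CPM with si-snaR-A#2, and 42.7, 42.3 and 44.1 CPM with si-snaR-A#3. It was higher with all 3 siRNAs (0.33 ± 0.06, 0.21 ± 0.06 and 0.31 ± 0.06, adjusted p = 0.00068, 0.0215 and 0.00185), every siRNA library lying above scramble. The call with si-snaR-A#2 was lost without si-snaR-A#2 replicate 1 (0.20), si-snaR-A#2 replicate 2 (0.18) or scramble replicate 1 (0.17).

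MSMO1, which oxidises the C4 methyl groups, was at 206, 225 and 228 CPM in scramble and at 215, 227 and 187 CPM with si-snaR-A#1, which overlapped (-0.07 ± 0.07). It was at 273, 300.1 and 289 CPM with si-snaR-A#2 (0.39 ± 0.07, adjusted p = 0.0009) and at 272, 290.3 and 287 CPM with si-snaR-A#3 (0.37 ± 0.07, adjusted p = 0.00116), above scramble in all 6 libraries. NSDHL, which acts after it, was at 48.1, 50.2 and 48.6 CPM in scramble, 47.3, 45.9 and 40.5 CPM with si-snaR-A#1, 55.5, 53.8 and 54.8 CPM with si-snaR-A#2, and 53.3, 55.3 and 56.3 CPM with si-snaR-A#3. Its groups did not overlap with scramble, but the calls lay near the threshold (-0.14 ± 0.05, 0.16 ± 0.05 and 0.17 ± 0.05, adjusted p = 0.0473, 0.0365 and 0.027). They were lost in 17, 9 and 5 of 21 alternative settings, and the log2 fold changes over those settings ran from -0.18 to -0.07, from 0.11 to 0.18 and from 0.11 to 0.19.

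EBP, the sterol isomerase that precedes SC5D, was at 57.1, 61.0 and 60.0 CPM in scramble, 55.5, 54.8 and 51.3 CPM with si-snaR-A#1, 62.7, 62.9 and 63.6 CPM with si-snaR-A#2, and 64.0, 67.7 and 69.5 CPM with si-snaR-A#3. It was lower with si-snaR-A#1 (-0.14 ± 0.04, adjusted p = 0.0185) and higher with si-snaR-A#3 (0.18 ± 0.04, adjusted p = 0.00813), and with si-snaR-A#2 the difference of 0.09 ± 0.04 did not pass. The si-snaR-A#1 call was lost without si-snaR-A#1 replicate 3 (-0.11), scramble replicate 2 (-0.12) or scramble replicate 3 (-0.13). Of the other 5 enzymes, the reductase gene HSD17B7 fell with si-snaR-A#1 (mean 18.0 against 27.7 CPM in scramble) and si-snaR-A#3 (23.1 CPM). The demethylase gene CYP51A1 and the reductase gene DHCR7 rose with si-snaR-A#2 as well as si-snaR-A#3. FDFT1, which makes squalene, rose with si-snaR-A#1, and SQLE rose with si-snaR-A#2. CYP51A1 lost its call with either siRNA without scramble replicate 1 (0.16 and 0.17 in turn), and with si-snaR-A#2 also without si-snaR-A#2 replicate 2 (0.18) or 3 (0.19). The SQLE call was lost without si-snaR-A#2 replicate 2 (0.18), si-snaR-A#2 replicate 3 (0.22) or scramble replicate 1 (0.17).

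Of the 9 genes of fatty acid and lipid synthesis, 4 rose and none fell with si-snaR-A#2, 3 rose and none fell with si-snaR-A#3, and 3 rose and 3 fell with si-snaR-A#1, with medians of 0.19, 0.07 and -0.05. The shares of all genes called in that order were 25.8%, 29.4% and 45.2%, and the 3 of 9 with si-snaR-A#3 are near theirs. ACLY and FASN rose with each siRNA. ACLY, which releases acetyl-CoA from citrate in the cytosol, was at 589.7, 615 and 619.7 CPM in scramble, 722, 722 and 646 CPM with si-snaR-A#1, 720, 737 and 696 CPM with si-snaR-A#2, and 737, 735 and 703 CPM with si-snaR-A#3. It changed on the log2 scale by 0.20 ± 0.05, 0.24 ± 0.05 and 0.25 ± 0.05 (adjusted p = 0.00498, 0.00275 and 0.00164), and all 9 siRNA libraries lay above scramble.

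FASN, the fatty acid synthase, was at 282, 279.5 and 272 CPM in scramble, 391, 396 and 379.8 CPM with si-snaR-A#1, 369.9, 370.3 and 339 CPM with si-snaR-A#2, and 379, 374 and 323 CPM with si-snaR-A#3. It rose by 0.49 ± 0.06, 0.37 ± 0.06 and 0.37 ± 0.06 on the log2 scale (adjusted p = 1.7e-05, 0.00041 and 0.00038), again with every siRNA library above scramble.

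SCD, which makes monounsaturated fatty acids, was at 1376, 1463 and 1449 CPM in scramble, 1084, 1142 and 975 CPM with si-snaR-A#1, 1658, 1887 and 1691 CPM with si-snaR-A#2, and 1454, 1592 and 1467 CPM with si-snaR-A#3. It fell with si-snaR-A#1 (-0.42 ± 0.07, adjusted p = 0.00018), rose with si-snaR-A#2 (0.29 ± 0.07, adjusted p = 0.00635), and overlapped with scramble with si-snaR-A#3 (0.07 ± 0.07). ELOVL6, which elongates palmitate, was at 84.1, 84.8 and 79.3 CPM in scramble, 71.5, 71.0 and 77.1 CPM with si-snaR-A#1, 97.1, 89.7 and 96.3 CPM with si-snaR-A#2, and 106, 105 and 102 CPM with si-snaR-A#3. It was lower with si-snaR-A#1 (-0.18 ± 0.05, adjusted p = 0.00614) and higher with si-snaR-A#2 (0.19 ± 0.04, adjusted p = 0.0075) and si-snaR-A#3 (0.34 ± 0.04, adjusted p = 0.00012), with no overlap.

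The other 5 genes of this role gave few calls. ACACA, the cytosolic acetyl-CoA carboxylase, was higher with si-snaR-A#1 (mean 69.0 against 48.4 CPM), with the largest standard error of the 35 members (0.14), and that call was lost without si-snaR-A#1 replicate 1 or scramble replicate 1 (0.42 in both). ACSS2, which makes acetyl-CoA from acetate, was lower with si-snaR-A#1 (mean 15.0 against 17.8 CPM). The desaturase genes FADS1 and FADS2 and the phosphatidate phosphatase gene LPIN1 passed in none of the 7 comparisons, and their log2 fold changes against scramble lay between -0.10 and 0.06.

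Direct comparison of the siRNAs placed most called members lower with si-snaR-A#1 than with either other siRNA. For si-snaR-A#1 against si-snaR-A#2, 25 of 35 members were called (46.7% of all genes), 22 of them lower with si-snaR-A#1 (23.0% of all genes) and 3 higher (23.7%). For si-snaR-A#1 against si-snaR-A#3, 24 were called (48.6% of all genes), 20 lower with si-snaR-A#1 (24.8%) and 4 higher (23.8%). The median differences over the members were -0.23 and -0.30 on the log2 scale, beside 0.03 and 0.03 over all genes. By role, 6 of 8 enzymes up to the isoprenoid diphosphates, 10 of 12 sterol enzymes, 3 of 6 control genes and 3 of 9 fatty acid genes were lower with si-snaR-A#1 than with si-snaR-A#2.

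The differences of at least 2-fold were those of SC5D (-1.47 ± 0.04 against si-snaR-A#2 and -1.55 ± 0.04 against si-snaR-A#3), INSIG1 (-1.39 ± 0.07 and -1.42 ± 0.07), IDI1 against si-snaR-A#2 (-1.26 ± 0.07) and LBR against si-snaR-A#3 (-1.16 ± 0.04). Higher with si-snaR-A#1 than with either other siRNA were SCAP (0.37 ± 0.04 and 0.29 ± 0.04), FDFT1 and SREBF1. SREBF1 differed by 0.46 ± 0.10 from si-snaR-A#2 (adjusted p = 0.00227) and by 0.34 ± 0.10 from si-snaR-A#3 (adjusted p = 0.0141). The SREBF1 difference from si-snaR-A#3 did not pass without si-snaR-A#1 replicate 3 (0.20) or si-snaR-A#3 replicate 1 (0.27). With the GC content and length trend removed neither SREBF1 difference passed (0.20, adjusted p = 0.0871, and 0.11, adjusted p = 0.326), and those of SCAP shrank to 0.14 and 0.08. The second SCAP call was lost when the replicate block was added (adjusted p = 0.0578). The FDFT1 calls were lost in 2 and 6 of 21 settings, among them leaving out si-snaR-A#1 replicate 2 (0.17 and 0.14). FASN, LSS and ACLY did not pass in either comparison, with 95% intervals of -0.01 to 0.24, -0.02 to 0.25 and -0.15 to 0.06 for the difference of si-snaR-A#1 against si-snaR-A#2.

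For si-snaR-A#2 against si-snaR-A#3, 10 members were called (15.6% of all genes), 6 higher with si-snaR-A#2 (6.52%) and 4 lower (9.03%). The median over the members was 0.00, beside -0.01 over all genes. IDI1 had the largest difference (0.68 ± 0.07, adjusted p = 3.8e-05), followed by INSIG2 (0.43 ± 0.08, adjusted p = 0.00447) and TM7SF2 (-0.38 ± 0.07, adjusted p = 0.00261). INSIG1 did not differ beyond the spread of these libraries, with a 95% interval of -0.16 to 0.11. The count was 5 without si-snaR-A#2 replicate 2 and became 6 without si-snaR-A#3 replicate 1.

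Taking the mean of the 3 siRNAs against scramble, 19 members were called (32.2% of all genes), 12 higher (15.6%) and 7 lower (16.6%), and the median was 0.06 beside -0.04 over all genes. INSIG1 had the largest mean change (0.60 ± 0.05, adjusted p = 4e-06), although its 3 siRNAs lay on both sides of scramble, and FASN followed among the rises (0.41 ± 0.05, adjusted p = 3.4e-05). TM7SF2 had the largest mean fall (-0.55 ± 0.05, adjusted p = 9.4e-06). The standard errors and p-values of these means measure the spread between cultures within a group, and not the spread between siRNAs. The 16 members that did not pass in the mean were ACAT2, MVK, PMVK, GGPS1, SQLE, CYP51A1, NSDHL, EBP, SREBF1, SREBF2, ACSS2, ACACA, SCD, FADS1, FADS2 and LPIN1.

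The base composition of the transcripts was set beside the fold changes, since GC content varies among the members. Over the 35 members, Pearson's r between the log2 fold change and the GC content of the canonical transcript was 0.50, -0.22 and -0.03 with the 3 siRNAs in turn. Over 20691 genes it was 0.17, -0.10 and -0.07. The genes share their libraries and are not independent. For the difference of si-snaR-A#1 against si-snaR-A#2, r was 0.58 over the members and 0.24 over all genes. With a trend on GC content and length removed from each library, the falls of SC5D (-1.0), LBR (-0.68), IDI1 (-0.58), INSIG2 (-0.43) and INSIG1 (-0.25) with si-snaR-A#1 still passed. Other si-snaR-A#1 changes still passed but shrank by over 1.5 times: FASN from 0.49 to 0.20, LSS from 0.33 to 0.19, MVD from 0.30 to 0.14 and STARD4 from -0.54 to -0.28. FASN, whose log2 fold change was highest with si-snaR-A#1 before the removal, was then lowest there (0.20, beside 0.44 and 0.39 with the other 2 siRNAs). Under the same setting MSMO1 turned from -0.07 to 0.18 and passed as higher with si-snaR-A#1, SREBF2 moved to -0.17 and passed as lower, and ELOVL6 (-0.09) lost its call.

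**Figure D5:**
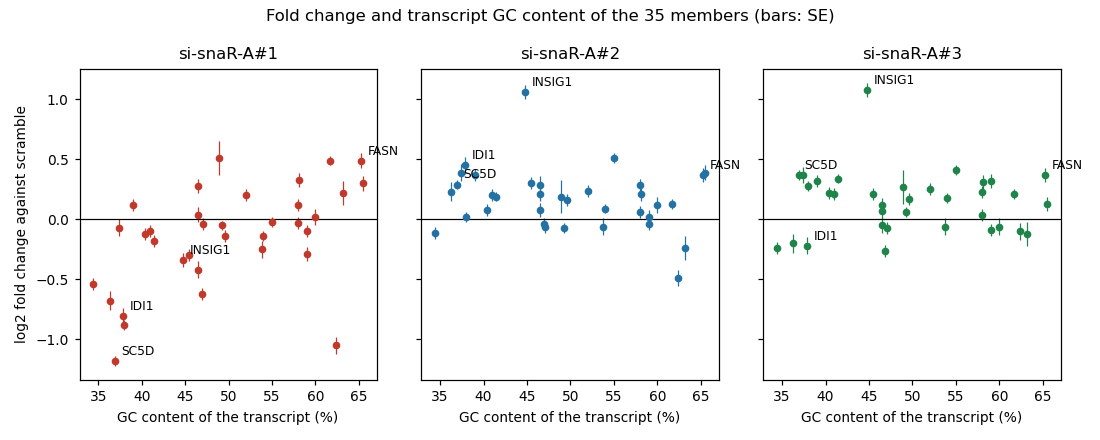
Log2 fold change against scramble (vertical, bars are SE) and GC content of the canonical transcript in percent (horizontal) for the 35 members with each siRNA. With si-snaR-A#1 the members of low GC content lie lower (r = 0.50), and r was -0.22 and -0.03 with the other 2 in turn.

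Exons of 19 of the 35 members overlap those of another gene in GENCODE release 44, 6 of them on the same strand and 17 on the opposite strand. Whether the counting used strand is not stated, so reads of such pairs may be shared. Pseudogenes named after a member were listed for 5 members, and none had a mean above 0.0385 CPM.

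Genes that act beside the 35 were read from 5 further lists, whose counts stand beside the 45.2%, 25.8% and 29.4% of all genes called with the 3 siRNAs in turn. Of 12 partners of SREBP processing and sterol sensing, 3 rose and 5 fell with si-snaR-A#1, 4 rose with si-snaR-A#2, and 6 rose with si-snaR-A#3. ERLIN2 and ERLIN1, membrane proteins of the endoplasmic reticulum that bind the SREBP complex, rose with each siRNA (ERLIN2 by 0.35, 0.79 and 0.69 and ERLIN1 by 0.27, 0.88 and 0.50 on the log2 scale). MBTPS2, the protease of the second cleavage of SREBPs, fell with si-snaR-A#1 (-0.74) and was at 0.04 and 0.03 with the other 2, neither of which passed. Of 12 genes of cholesterol transport and liver X receptor (LXR) output, 3 rose and 3 fell with si-snaR-A#1, 3 rose and 3 fell with si-snaR-A#2, and 2 rose and 4 fell with si-snaR-A#3. The 6 of 12 called with si-snaR-A#1 are near the share of all genes. SOAT1, which esterifies cholesterol, fell with each siRNA (-0.73, -0.59 and -0.49), and NR1H2, which encodes an LXR, rose with each (0.22, 0.44 and 0.59). The NR1H2 call with si-snaR-A#1 was lost with the GC content and length trend removed (0.10, adjusted p = 0.257). ABCG1, a sterol exporter and LXR target, rose with si-snaR-A#1 (0.49) and fell with the other 2 (-0.78 and -0.51).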

How the data were processed

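Poly(A)+ RNA of HEK293T cells was sequenced in 12 libraries, 3 for each of 4 siRNAs. Per the labels and methods, the authors trimmed reads with Trim Galore, quantified them with Salmon and deposited estimated counts per Ensembl gene. The transcript set, how transcripts were summed to genes and whether strand was used are not given in the sources used here. Among values from 0.5 to 1.5, 77.8% were within 0.05 of 1 rather than whole, as after rescaling by transcript length, so rounding and counting error are approximate.

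Symbols, positions and lengths came from GENCODE release 44 on GRCh38, which held 58160 of the 63541 IDs, and promoter windows from RefSeq. Values were rounded, filtered with filterByExpr and scaled by TMM. All 12 libraries entered 1 fit in edgeR 4.0.16 (R 4.3.3) with a coefficient per group, and the quasi-likelihood test was adjusted by the Benjamini-Hochberg method over 21999 genes for each of 7 comparisons. Calls are at an adjusted p under 0.05, ± after a log2 fold change is its standard error, and 95% intervals use the t distribution with the degrees of freedom of the fit. The common biological coefficient of variation was 0.117. The alternatives were 2 other scalings, 2 other filters, only the compared groups, the replicate number as a block, a trend on GC content and length removed, both together, DESeq2 1.42.0, and each library left out. The scripts were tested on simulated data.

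Values in every library were printed for members called in 1 direction with all 3 siRNAs, the 5 largest changes of each siRNA (mean of at least 1 CPM), members called in opposite directions with 2 siRNAs, and the SREBP control genes, 20 of the 35 in all. From each other list at most 3 genes are named, those with the largest change in the mean of the 3 siRNAs. The members and lists were chosen with earlier results of these data known. siRNA sequences entered no comparison here.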

Additional observations from a re-analysis of the deposited data

Results flagged for a closer look

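In 10 of the 35 members, 2 siRNAs were called in opposite directions against scramble and the difference between those siRNAs was itself called in edgeR's quasi-likelihood test, for 16 differences in all. The share of all genes tested that meet this same rule was not computed. Whether 10 of 35 is more than other genes would give is therefore not known. All 16 are log2 differences between the first and the second siRNA named, over 3 libraries each. SC5D, the sterol C5 desaturase, was lower with si-snaR-A#1 by -1.47 than with si-snaR-A#2 and by -1.55 than with si-snaR-A#3. INSIG1, which retains SCAP, gave -1.39 and -1.42 for the same pairs. ACAT2, the thiolase, gave -0.61 and -0.52, the C4 decarboxylase gene NSDHL -0.29 and -0.30, and the elongase gene ELOVL6 -0.37 and -0.51. IDI1, the isomerase, was lower with si-snaR-A#1 than with si-snaR-A#2 (-1.26) and higher with si-snaR-A#2 than with si-snaR-A#3 (0.68). SCD, the desaturase, differed by -0.71 for si-snaR-A#1 against si-snaR-A#2. For si-snaR-A#1 against si-snaR-A#3, LBR differed by -1.16, PMVK by -0.61 and EBP by -0.32. The libraries of the compared siRNAs did not overlap in any of the 16. That adds no separate support, since the 16 were picked for a called difference. NSDHL is the least certain of these, since its call against scramble with si-snaR-A#1 was lost in 17 of 21 alternative settings.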

How the results depend on the processing

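Over 21 alternative settings, 12 of them leaving out 1 library each, the text's 209 gene comparisons gave 4355 values, of which 4133 kept direction and side of the threshold, 167 lost a call, 32 gained one and 23 changed sign. With the GC content and length trend removed, without and with the replicate block, 4 called pair differences of members turned and lost their call: HMGCS1 (0.023 and 0.024), MVD (-0.05) and STARD4 (0.024) for si-snaR-A#1 against si-snaR-A#3, and GGPS1 (0.004 and 0.005) for si-snaR-A#1 against si-snaR-A#2. ACADM, an oxidation gene, turned to 0.047 with si-snaR-A#1 and lost its call. MSMO1 with si-snaR-A#1 turned to 0.18 and was called, and leaving out 1 library gave from -0.127, without si-snaR-A#1 replicate 2, to 0.006, leaving out its replicate 3. LBR with si-snaR-A#2, not called, turned to -0.027 and -0.028 there and to -0.025 under upper quartile scaling. Other uncalled values that turned were PMVK with si-snaR-A#2 (-0.021) and SREBF2 with si-snaR-A#3 (-0.013) under upper quartile scaling, and, with si-snaR-A#1 under a mean of at least 1 CPM and with only the compared groups, FDPS (0.011 and 0.014) and SREBF2 (0.00 and 0.003). SREBF2 with that siRNA also turned without scramble replicate 3 (0.004). The cause of these turns was not tested.

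Counts of members called stayed within 1.5 times the main count except for si-snaR-A#2 against si-snaR-A#3, where leaving out 1 library gave between 5 and 12 against 10, namely 5 without si-snaR-A#2 replicate 2 and, as the next lowest, 6 without si-snaR-A#3 replicate 1. All genes called in that comparison ranged from 2215, without si-snaR-A#2 replicate 2, to 3830 against 3421. Leaving out 1 library gave between 20 and 23 members with si-snaR-A#1, between 14 and 21 with si-snaR-A#2, and between 19 and 21 with si-snaR-A#3.

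Replicate numbers are shared by the groups, but same-numbered libraries did not deviate together: 5 of 18 pairs had a correlation over 0.1 over 14529 genes (from -0.24 to 0.17), and 5 of 12 libraries correlated best with their own number. With the replicate block, 21, 17 and 21 members were called with the 3 siRNAs, 19 in their mean, and 25, 25 and 9 between siRNAs. Over the 209 gene comparisons, 4 calls were lost and 0 gained.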

Other observations

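The counts of the 3 lists not yet described stand beside the 45.2%, 25.8% and 29.4% of all genes called with the 3 siRNAs in turn, and no list was tested as a whole. Of 10 genes that branch from farnesyl diphosphate, 3 rose and 4 fell with si-snaR-A#1, 7 rose and 0 fell with si-snaR-A#2, and 6 rose and 0 fell with si-snaR-A#3, with median log2 fold changes of -0.01, 0.22 and 0.31. NUS1, a subunit of the enzyme that makes dolichol precursors, rose with each siRNA (0.27, 0.59 and 0.67). ICMT, which methylates prenylated proteins, also rose with each (0.38, 0.34 and 0.50). PDSS2, which makes the side chain of coenzyme Q, stood at 0.17 without passing with si-snaR-A#1 and rose with the other 2 (0.41 and 0.43).

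Of 19 tested genes of fatty acid elongation, activation and triglyceride synthesis, 5 rose and 6 fell with si-snaR-A#1, 3 rose and 8 fell with si-snaR-A#2, and 5 rose and 4 fell with si-snaR-A#3. ELOVL5, which elongates polyunsaturated fatty acids, fell with si-snaR-A#2 (-1.02 ± 0.04 SE, adjusted p = 1.9e-08) and si-snaR-A#3 (-1.06 ± 0.04, adjusted p = 9.3e-09), and with si-snaR-A#1 stood at 0.11 ± 0.04 (adjusted p = 0.0549). ACSL4, which activates polyunsaturated fatty acids, rose with these 2 siRNAs (0.83 ± 0.05 and 0.92 ± 0.05) and fell with si-snaR-A#1 (-0.35 ± 0.05). LPIN3, a phosphatidate phosphatase, fell with each siRNA (-0.45, -0.31 and -0.50), and its call with si-snaR-A#2 was lost without scramble replicate 1 (-0.23) or without si-snaR-A#2 replicate 1 (-0.29), 2 (-0.32) or 3 (-0.31), and with the replicate block and the GC trend removed together (-0.26). Of 14 fatty acid oxidation genes, 2 rose and 5 fell with si-snaR-A#1, 7 rose and 0 fell with si-snaR-A#2, and 7 rose and 2 fell with si-snaR-A#3. ECI1, an enoyl-CoA isomerase, rose with each siRNA (0.92, 0.55 and 0.77).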
